A study of Mus musculus with 2 samples.

Results

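Collagen genes were followed across the cell types of the mouse fetal lung on gestation day 18. All gene rows named as a numbered collagen alpha chain (Col, the collagen number, a, the chain number) were taken, which gave 44 genes of the 32285 gene rows in both libraries. Of the 44, 43 had at least 1 unique molecular identifier (UMI, a tag that counts captured RNA molecules) in the nuclei kept, and Col10a1 had none. Cell types were assigned from marker genes that include no collagen.

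The data were paired single-nucleus RNA and chromatin profiles from 1 library for each group of wild-type C57BL/6J fetuses. Dams of 6 to 8 weeks were sensitized intraperitoneally on day -21 and day -7 with 100 µg ovalbumin (OVA) in alum, mated with untreated males, and given 500 µg OVA intranasally every few days between gestation days 4 and 17, and control dams received PBS with alum and then PBS. Lungs of 9 PBS and 8 OVA fetuses were pooled, each group from 1 dam, so that dam, litter, library and treatment cannot be told apart and no difference between the libraries has a replicate check. The labels name ILC2 (CD45+, Lin-, ST2+), CD45+ and EpCAM+ cells as the sorted fractions. They name no stromal sort, and the study's methods give a PDGFRβ+ fibroblast gate for adult lungs only, though its results text reads as if fetal lungs had it too, so the number of stromal nuclei cannot be read as the lung's makeup.

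Collagens are secreted or membrane-bound proteins built from a triple helix of alpha chains. Fibrillar collagens (types I, III and V) form the tension-bearing fibres of the interstitium, type IV forms the network of basement membranes, and type VI forms beaded filaments around cells. FACIT collagens decorate fibrils, multiplexins sit in basement membrane zones, and transmembrane collagens are held in the plasma membrane. In the lung the basement membrane that alveolar epithelium shares with the capillary carries a network of the alpha 3, alpha 4 and alpha 5 chains of type IV beside the widespread alpha 1 and alpha 2 chains.

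The deposited tables held 8019 PBS and 5960 OVA barcodes with 11473351 and 13774959 gene UMIs. Mitochondrial genes took 45.2% and 29.2% of them, and 1919 PBS against 454 OVA barcodes had under 200 genes, so the PBS library was the poorer one. After filters and removal of called doublets 4279 and 4996 nuclei remained with a median of 649 and 1212.5 nuclear-gene UMIs, and marker gates placed 1953 and 2754 of them. The libraries shared 54 barcodes, 9 of them among gated nuclei. The reported gates were alveolar fibroblasts (320 PBS and 647 OVA nuclei), myofibroblasts or smooth muscle (91 and 123), pericytes (81 and 122), stroma without subtype (354 and 485), alveolar type 1 cells (AT1, 200 and 269), alveolar type 2 cells (AT2, 400 and 294), macrophages (140 and 184), ILC2 (257 and 454) and mast cells or basophils (36 and 66). Levels are CPM, the UMIs of a gene per 1000000 nuclear-gene UMIs of its gate, and each interval is 95% and covers counting error only. Check markers that did not enter a gate were mostly higher in it than in other nuclei. Gucy1b1, a subunit of the nitric oxide receptor of mural cells, was at 1046 and 1110 CPM in pericytes against 36.2 and 26.6 elsewhere. Pdgfra did not separate alveolar fibroblasts (148 and 134 CPM against 166 and 140). The sparse check marker Steap4 was at 11.6 (1 UMI) and 0 CPM in pericytes against 7.34 and 8.66 elsewhere. Cd163 was at 0 and 31.7 CPM in macrophages against 0.721 and 0.372.

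Several collagen genes lie head to head and share the stretch between their starts. These stretches and those upstream of Col1a2, Col6a1, Col6a3 and Col25a1 are shown because the results on type I, type IV, type VI and transmembrane collagens turn on these genes. For Col4a3, Col1a2 and Col25a1 the start in the deposited gene list lies downstream of the first annotated one; chromatin was counted at the deposited start, while the Col4a4 to Col4a3 stretch ends at the first annotated start of Col4a3. Sequences are from RefSeq on GRCm38.p6, written 5′ to 3′ on the strand named, and capitals mark a GC box (GGGCGG or CCGCCC) or a CCAAT box (CCAAT or ATTGG), the motifs searched on both strands together with TATAAA and TTTATA.
Col4a4 to Col4a3, chr1:82586850-82586920, minus strand: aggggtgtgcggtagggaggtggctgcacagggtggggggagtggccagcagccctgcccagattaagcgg
Col4a2 and Col4a1 overlap, chr8:11312805-11312826, plus strand: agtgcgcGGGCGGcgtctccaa
Col1a2 upstream, chr6:4505368-4505492, plus strand: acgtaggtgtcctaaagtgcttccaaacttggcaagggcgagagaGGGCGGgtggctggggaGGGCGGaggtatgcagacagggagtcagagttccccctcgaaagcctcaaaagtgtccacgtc
Col6a1 upstream, chr10:76726169-76726294, minus strand: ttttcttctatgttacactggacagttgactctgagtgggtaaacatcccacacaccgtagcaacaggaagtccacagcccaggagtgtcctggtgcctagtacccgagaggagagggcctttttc
Col6a3 upstream, chr1:90843972-90844221, minus strand: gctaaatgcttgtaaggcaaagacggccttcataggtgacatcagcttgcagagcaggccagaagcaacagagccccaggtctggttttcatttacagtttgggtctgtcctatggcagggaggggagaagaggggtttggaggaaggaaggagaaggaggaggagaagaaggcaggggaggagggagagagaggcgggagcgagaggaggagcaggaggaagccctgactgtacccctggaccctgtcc
Col25a1 upstream, chr3:130180595-130180844, plus strand: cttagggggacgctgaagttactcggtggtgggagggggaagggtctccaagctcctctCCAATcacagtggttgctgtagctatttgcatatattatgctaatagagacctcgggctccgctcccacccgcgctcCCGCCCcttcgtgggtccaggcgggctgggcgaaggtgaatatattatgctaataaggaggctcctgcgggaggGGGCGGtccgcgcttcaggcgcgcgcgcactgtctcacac

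In RefSeq promoter windows of 300 bases, 35 of the 44 collagen genes were matched with 38 windows. A GC box stood in 23 of the 38 (60.5%) and in 35.7% of all 32851 promoters. CCAAT or ATTGG stood in 13 of the 38 (34.2%) against 37.4% of all promoters, and TATAAA or TTTATA in 5 of the 38 (13.2%) against 13.6%. These matches describe letters in a window and were not tested as binding sites.

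Summed over the 44 genes, collagen RNA was highest in alveolar fibroblasts among the gates. There it took 12276 CPM in the PBS and 13134 CPM in the OVA library, which is 1.23% and 1.31% of all nuclear-gene UMIs. Stroma without subtype held 10159.8 and 10685 CPM. Pericytes held 9123 and 7931 CPM and myofibroblasts or smooth muscle 8362 and 7596 CPM. AT1 cells held 3900 and 4668 CPM and AT2 cells 2118 and 1998 CPM. Macrophages had 469 and 306 CPM and ILC2 806 and 414 CPM. Mast cells or basophils had 2659 and 884 CPM from 62 and 69 UMIs, above AT2 cells in the PBS library with overlapping intervals. Stroma stood above epithelium, and epithelium above ILC2 and macrophages, in both libraries, each step being larger than its counting interval.

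**Figure D1:**
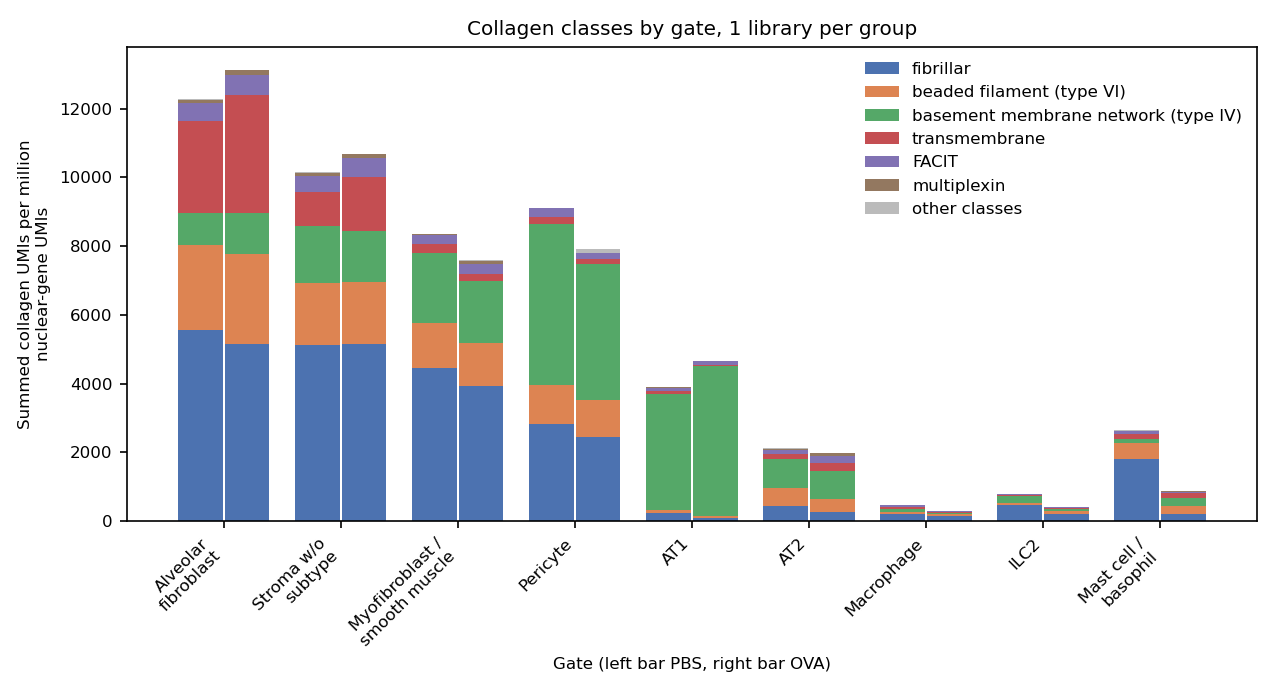
Summed collagen level in CPM of nuclear-gene UMIs (vertical axis) by marker gate (horizontal axis, left bar PBS, right bar OVA, 1 library each), stacked by collagen class. Alveolar fibroblasts reach 12276 and 13134, AT1 bars are almost wholly type IV (86.5% and 93.9%), and type IV makes up 51.5% and 50.1% of the pericyte bars.

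The classes divided the cell types. Fibrillar genes made up 45.3% and 39.4% of collagen UMIs in alveolar fibroblasts and 53.3% and 52.0% in myofibroblasts or smooth muscle. Type IV made up 86.5% and 93.9% in AT1 cells and 51.5% and 50.1% in pericytes, against 7.68% and 9.07% in alveolar fibroblasts. Transmembrane collagens took 21.7% and 26.1% of collagen UMIs in alveolar fibroblasts and 2.90% and 2.74% in myofibroblasts or smooth muscle.

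Of the 44 genes, 23 had 100 or more UMIs in the reported gates, and 20 of the 23 had the same highest gate in both libraries. The other 21 had at most 85 UMIs (Col15a1), and their ranks among gates are not read. A gene counts as past the fold between cell types when its CPM differed at least 2-fold in the same direction in both libraries with both intervals leaving out equality, among genes with 50 or more UMIs; 0 stands as 3 counts. In stroma over immune cells 23 of 27 collagen genes tested were higher, against 15.9% of the 9329 genes tested, and 0 of 27 were lower, against 13.7%. The median log2 difference of the 27 was 3.19 and 4.59, beside 0.02 and 0.02 over all genes tested. Col4a4, Col20a1, Col6a4 and Col22a1 were the 4 tested genes that did not pass. With nuclei limited to at most 20% mitochondrial UMIs, which left few immune nuclei, 9 collagen genes passed.

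**Figure D2:**
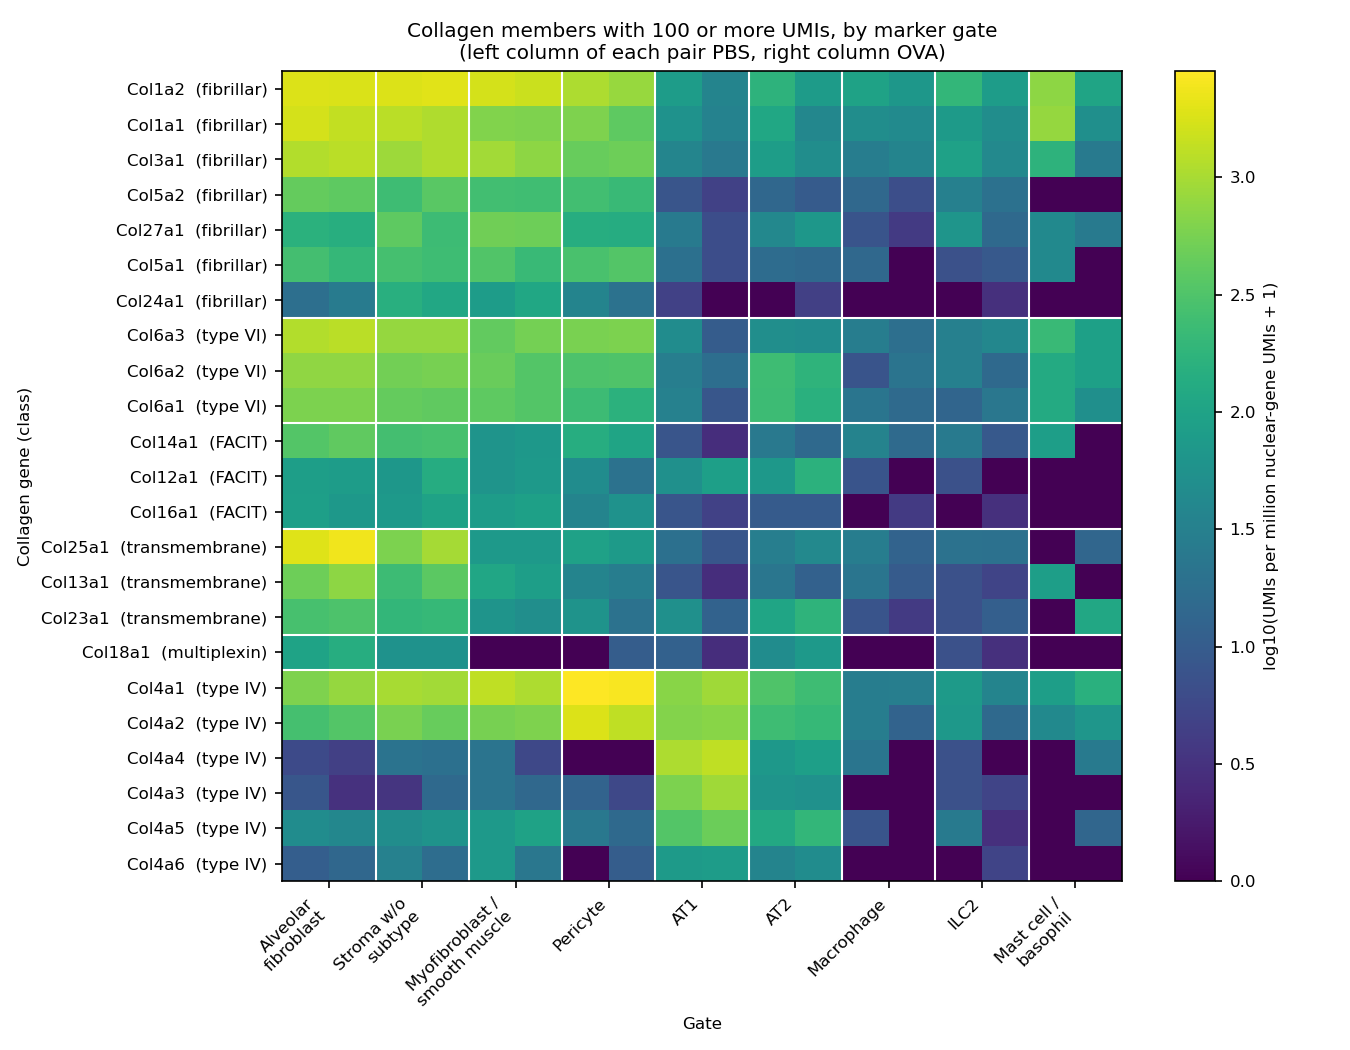
The 23 collagen genes with 100 or more UMIs (rows, grouped by class) by gate (columns in pairs, PBS left and OVA right, 1 library each), coloured by log10 of CPM plus 1. Col4a3 and Col4a4 are bright in AT1 cells (580 and 918 for Col4a3 and 1055 and 1301 for Col4a4, in CPM), Col25a1 in alveolar fibroblasts (1887 and 2404), and the immune gates are dark for most rows.

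Among the fibrillar genes, Col1a2, the alpha 2 chain of type I collagen and the gene with the most collagen UMIs, was, among the gates, highest in stroma without subtype (1882 and 1949 CPM) and reached 1838 and 1814 CPM in alveolar fibroblasts, 1695 and 1500 in myofibroblasts or smooth muscle, and 1046 and 834 in pericytes. Its partner Col1a1 was less even: 1712 and 1368 CPM in alveolar fibroblasts, 635 and 603 in myofibroblasts or smooth muscle, and 616 and 398 in pericytes. Col1a1 was thus 2.69 and 2.27 times higher in alveolar fibroblasts than in myofibroblasts or smooth muscle, whereas Col1a2 differed by 0.12 and 0.27 on the log2 scale. Within a library the log2 ratio of Col1a1 to Col1a2 UMIs was -0.10 (-0.25 to 0.05) and -0.41 (-0.49 to -0.32) in alveolar fibroblasts and -1.42 (-1.86 to -0.99) and -1.32 (-1.62 to -1.02) in myofibroblasts or smooth muscle. The intervals of these cell types do not overlap in either library. Divided by kilobases of gene span, Col1a1 was the highest collagen of alveolar fibroblasts, at 102 and 81.3 CPM per kb. Col1a2 was next and Col6a1 (33.7 and 34.0 CPM per kb) came after it. Col1a1 spans only 16.8 kb, and whether UMIs scale with gene span was not tested.

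Col3a1, the type III chain of compliant tissues, stood at 1128 and 1225 CPM in alveolar fibroblasts and 442 and 487 in pericytes. Pericytes were below alveolar fibroblasts by 1.35 and 1.33 on the log2 scale for this gene, past the fold. The type V chains, which start fibrils, differed less than 2-fold between these cells. Col5a1 was at 260 and 196 CPM in alveolar fibroblasts, 323 and 218 in myofibroblasts or smooth muscle and 291 and 337 in pericytes. Col5a2 was at 433 and 388, 252 and 245, and 256 and 220. Neither gene passed the fold in either comparison. Col5a2 was still higher in alveolar fibroblasts than in pericytes in both libraries. The log2 difference was 0.76 (0.12 to 1.47) in the PBS library, and the OVA levels were 388 against 220 CPM. The log2 ratio of Col5a1 to Col5a2 UMIs was -0.74 (-1.10 to -0.38) and -0.98 (-1.20 to -0.78) in alveolar fibroblasts. In pericytes that ratio was 0.18 (-0.70 to 1.08) and 0.62 (0.07 to 1.18).

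The minor fibrillar genes Col27a1 and Col24a1 were lower in alveolar fibroblasts than in myofibroblasts or smooth muscle. Col27a1, a fibrillar chain known from cartilage, was at 504 and 490 CPM in myofibroblasts or smooth muscle against 158 and 144 in alveolar fibroblasts, a log2 difference of -1.67 (-2.23 to -1.11) and -1.76 (-2.11 to -1.42). Col24a1, known from developing bone, stood at 80.7 and 113 CPM against 17.3 and 26.3, from 8 and 25 UMIs against 7 and 38. These were the 2 of 20 collagen genes lower in alveolar fibroblasts than in myofibroblasts or smooth muscle, against 5.68% of the 5955 genes tested, and clusters in place of gates gave 6. Col11a1, a chain of cartilage fibrils, also passed the fold in stroma over immune cells, from 22 and 40 UMIs against 1 and 0.

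In the other direction 7 of 20 collagen genes were higher in alveolar fibroblasts than in myofibroblasts or smooth muscle, against 4.74% of all genes tested. They were Col1a1, Col6a3, Col13a1, Col14a1, Col18a1, Col23a1 and Col25a1. Col25a1 led. This transmembrane collagen, known for its part in motor innervation of muscle and for its presence in amyloid plaques, was at 1887 and 2404 CPM in alveolar fibroblasts against 70.6 and 72.5 in myofibroblasts or smooth muscle and 93.0 and 75.0 in pericytes. The log2 difference between alveolar fibroblasts and myofibroblasts or smooth muscle was 4.74 (3.69 to 6.06) and 5.05 (4.35 to 5.86). When each nucleus was thinned to 500 UMIs, 50.9% (44.8 to 57.1) of 269 and 55.5% (51.6 to 59.4) of 641 alveolar fibroblast nuclei held a Col25a1 UMI, against 2.94% (0.358 to 10.2) and 3.25% (0.893 to 8.12) in myofibroblasts or smooth muscle and 2.24% and 0.754% in ILC2. Without thinning the alveolar fibroblast shares were 65.0% and 84.9%. Col25a1 spans 468 kb. Divided by that span it stood at 4.03 and 5.13 CPM per kb in alveolar fibroblasts, below the type I, III and VI chains. This rank depends on the division, as in plain CPM Col25a1 stood above Col1a2 there (1838 and 1814). Col25a1 was neither a gate marker nor part of the clustering.

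Col13a1 and Col23a1 were also higher in alveolar fibroblasts than in both other subtypes. Col13a1, a collagen of cell adhesion sites, was at 490 and 723 CPM in alveolar fibroblasts against 111 and 86.1 in myofibroblasts or smooth muscle and 34.9 and 28.1 in pericytes. Col23a1 was at 277 and 301 CPM against 60.5 and 49.9, and 58.1 and 18.7. Both passed the fold in both comparisons. Col23a1 also stood at 105 and 175 CPM in AT2 cells and at 53.7 and 11.1 in AT1 cells. Col17a1, the hemidesmosomal collagen of basal epithelia, had 21 UMIs in all reported gates.

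Of the FACIT collagens, Col14a1, which binds fibril surfaces, stood at 331 and 401 CPM in alveolar fibroblasts against 60.5 and 68.0 in myofibroblasts or smooth muscle and 140 and 103 in pericytes, past the fold in both comparisons. Col16a1 was at 89.0 and 68.6 CPM in alveolar fibroblasts and 80.7 and 90.6 in myofibroblasts or smooth muscle, with overlapping intervals. Of the multiplexins, Col18a1, the source of endostatin, was at 98.9 and 142 CPM in alveolar fibroblasts and had 0 UMIs in myofibroblasts or smooth muscle in either library, at least 3.27-fold and at least 10.4-fold lower there. It stood at 46.0 and 73.0 CPM in AT2 cells against 10.7 and 1.85 in AT1 cells (3 and 1 UMIs). Col15a1, its relative, passed the fold in stroma over immune cells from 24 and 45 UMIs against 1 and 3.

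**Figure D3:**
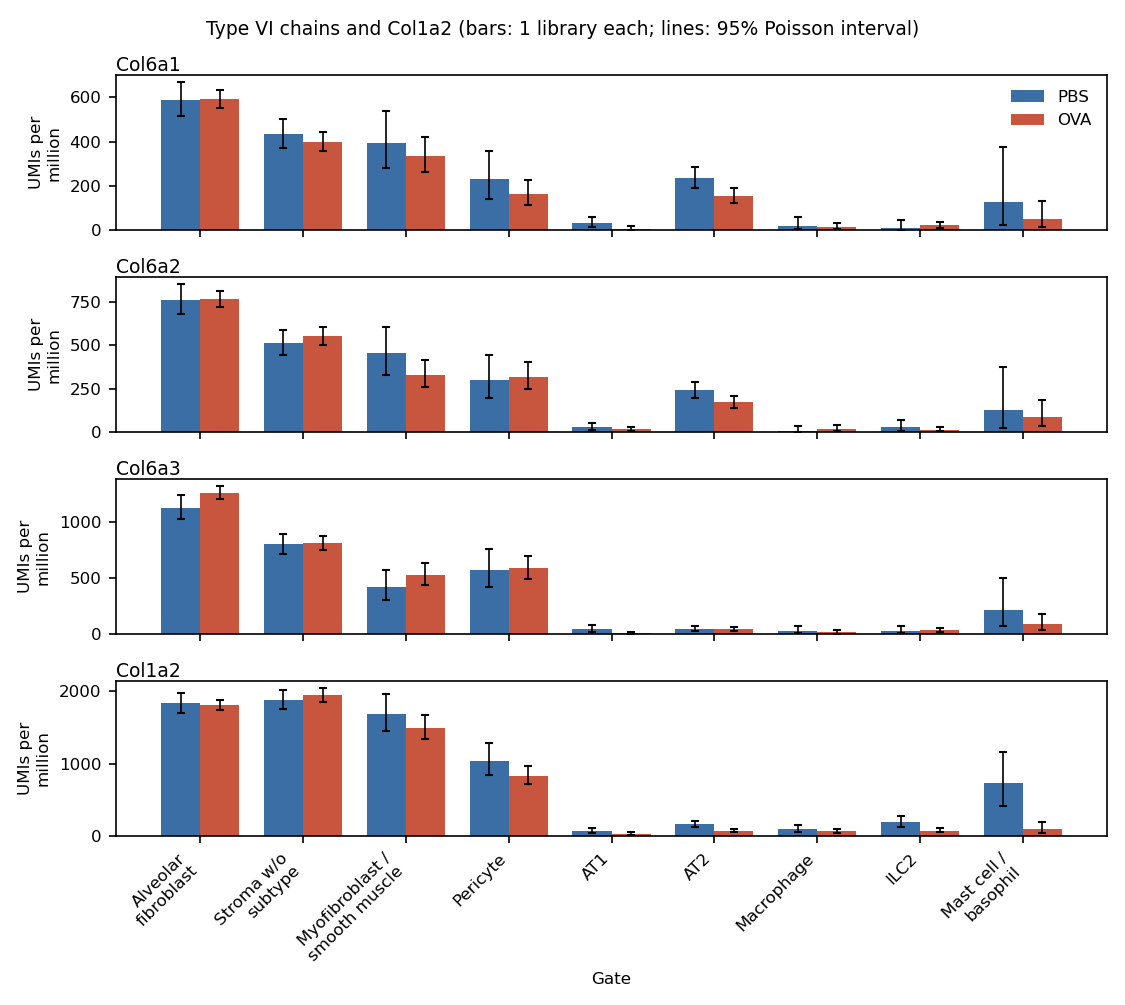
Level in CPM of nuclear-gene UMIs (vertical axes) of the type VI chains and Col1a2 by gate (horizontal axis), 1 bar per library with 95% Poisson intervals of counting error. Col6a1 and Col6a2 stand at 155 to 241 in AT2 cells, where Col6a3 stands at 50.4 and 46.3.

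Type VI collagen is assembled from 3 chains, Col6a1, Col6a2 and Col6a3. In alveolar fibroblasts Col6a1 was at 586 and 591 CPM, Col6a2 at 759 and 765, and Col6a3 at 1123 and 1254. Each of the 3 was highest in alveolar fibroblasts among the gates in both libraries. In AT2 cells the chains parted: Col6a1 was at 235 and 155 CPM and Col6a2 at 241 and 173, but Col6a3 was at 50.4 and 46.3. The log2 ratio of Col6a3 to Col6a1 UMIs was 0.94 and 1.08 in alveolar fibroblasts, 1.29 and 1.84 in pericytes, and -2.22 and -1.74 in AT2 cells. AT1 cells held 32.2 and 7.40 CPM of Col6a1 and 28.6 and 16.7 of Col6a2, past the fold below AT2 cells, by 2.87 and 4.39 on the log2 scale for Col6a1 and by 3.07 and 3.37 for Col6a2. The Col6a1 UMIs of AT2 cells lay in 91 and 62 nuclei, and after thinning 11.7% (8.38 to 15.8) of 316 and 7.41% (4.58 to 11.2) of 270 AT2 nuclei held one, against 1.40% and 0.424% of AT1 nuclei. Limited to at most 20% mitochondrial UMIs, 1 collagen gene in place of 4 was lower in AT1 than in AT2 cells.

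Barcodes under 200 genes were used as a stand-in for free RNA. They belong to the deposited barcodes, and whether they hold shallow nuclei was not tested. They held Col1a2 at 530 and 457 CPM, Col1a1 at 492 and 390, Col3a1 at 316 and 255, Col6a3 at 234 and 417 and Col25a1 at 112 and 188. AT2 cells had 360 and 166 CPM of Col1a1, Col1a2 and Col3a1 together, less than those barcodes. Each collagen of AT2 cells was also set against the sum of these fibrillar chains there and in the low barcodes. Relative to that sum, Col6a1 was higher in AT2 cells than in the low barcodes by 2.42 (1.92 to 2.94) and 2.17 (1.41 to 3.02) on the log2 scale and Col6a2 by 2.69 and 2.51. Col6a3 was not, at -0.32 (-1.07 to 0.38) and -0.44 (-1.25 to 0.36). Without that reference, the plain Col6a1 level of AT2 cells (235 and 155 CPM) was above that of the low barcodes in the PBS library (163 CPM) and below it in the OVA library (229 CPM). Col12a1, Col18a1, Col23a1, Col27a1 and the 6 type IV chains also stood above the low barcodes relative to the fibrillar chains in both libraries. The part of free RNA in these levels was not tested.

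In epithelium over immune cells 11 of 17 collagen genes tested were higher, against 17.8% of the 8524 genes tested, and 0 of 17 were lower, against 13.8%. The 11 were the 6 type IV chains, Col6a1, Col6a2, Col12a1, Col18a1 and Col23a1. Col1a1, Col1a2, Col3a1, Col6a3, Col25a1 and Col27a1 did not pass, the first 3 with log2 values between -0.63 and -0.16. Limited to at most 20% mitochondrial UMIs, 3 collagen genes were higher and 1 was lower.

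Among the reported gates the type IV chains fell into a set led by pericytes and a set led by AT1 cells. Col4a1 and Col4a2 encode the chains found in nearly all basement membranes. Col4a1 stood at 2824 and 2619 CPM in pericytes against 606 and 794 in alveolar fibroblasts, and 687 and 914 in AT1 cells. Col4a2 stood at 1836 and 1326, 267 and 340, and 637 and 690 CPM. Over alveolar fibroblasts the pericyte log2 differences were 2.22 (1.96 to 2.48) and 1.72 (1.57 to 1.87) for Col4a1 and 2.78 (2.42 to 3.15) and 1.97 (1.75 to 2.18) for Col4a2. After thinning, 73.7% and 78.6% of pericyte nuclei held a Col4a1 UMI, against 27.1% and 29.0% of alveolar fibroblasts and 4.48% and 1.51% of ILC2.

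**Figure D4:**
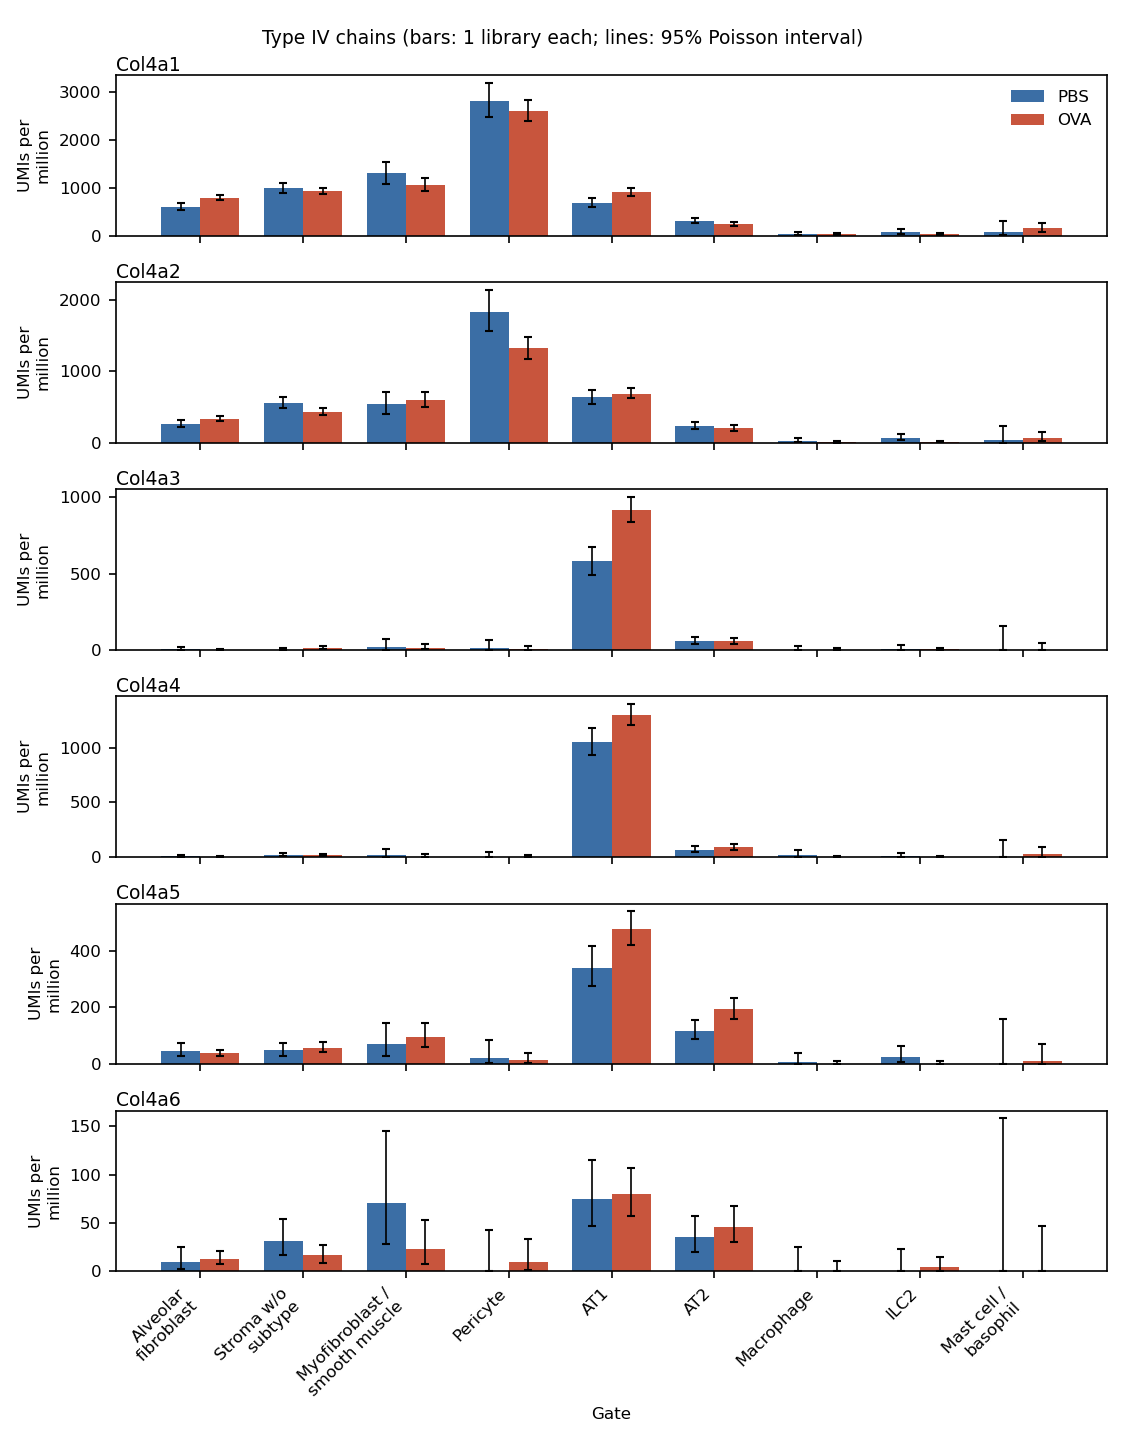
Level in CPM of nuclear-gene UMIs (vertical axes) of the 6 type IV chains by gate (horizontal axis), 1 bar per library with 95% Poisson intervals of counting error. Col4a1 (2824 and 2619) and Col4a2 (1836 and 1326) peak in pericytes and Col4a3, Col4a4 and Col4a5 in AT1 cells.

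These were the 2 of 20 collagen genes higher in pericytes than in alveolar fibroblasts, against 6.16% of the 5924 genes tested. Lower in pericytes were 9 of 20, against 5.49%, namely Col1a1, Col3a1, Col6a1, Col6a2, Col13a1, Col14a1, Col18a1, Col23a1 and Col25a1. Pericytes thus carried more Col4a1 and Col4a2 and less of several fibre, filament and transmembrane genes than alveolar fibroblasts did. Col1a2 (log2 -0.81 and -1.12), Col5a1 (0.16 and 0.78) and Col6a3 (-0.98 and -1.10) were not past the fold. The network chain Col4a5 had only 2 and 3 UMIs in pericytes, against 19 and 56 in alveolar fibroblasts. Among the sparse genes Col28a1, a von Willebrand domain collagen, had 20 UMIs in OVA pericytes, spread over 15 nuclei, and 0 in PBS pericytes; no other reported gate had more than 2.

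Col4a3, Col4a4 and Col4a5, the chains of the alveolar and glomerular network that is lost in Alport syndrome, were led by AT1 cells among the reported gates. Col4a4 stood at 1055 and 1301 CPM in AT1 cells against 68.0 and 87.3 in AT2 cells, Col4a3 at 580 and 918 against 59.2 and 55.2, and Col4a5 at 340 and 478 against 118 and 194. The AT1 over AT2 log2 differences were 3.96 (3.42 to 4.54) and 3.90 (3.48 to 4.35) for Col4a4, 3.29 (2.70 to 3.94) and 4.06 (3.53 to 4.63) for Col4a3 and 1.52 (1.02 to 2.03) and 1.30 (0.97 to 1.64) for Col4a5. With Col4a1 and Col4a2 (log2 1.14 and 1.92, and 1.41 and 1.77) they made 5 of 16 collagen genes higher in AT1 cells, against 8.19% of the 5629 genes tested. Lower were 4 of 16, against 7.62%, namely Col1a2, Col6a1, Col6a2 and Col18a1.

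After thinning, 35.7% and 43.6% of AT1 nuclei held a Col4a4 UMI, against 2.53% and 1.11% of AT2 nuclei and 0 of 57 and 0 of 112 pericyte nuclei. Col4a6 was low, at 75.1 and 79.6 CPM in AT1 cells and 35.1 and 46.3 in AT2 cells, and did not pass the fold. Its X-linked neighbour Col4a5 had more UMIs than Col4a6 in AT1 cells by 2.18 (1.48 to 2.93) and 2.58 (2.11 to 3.09) on the log2 scale. The pair Col4a3 and Col4a4 stood at -0.86 (-1.15 to -0.58) and -0.50 (-0.67 to -0.34) in AT1 cells. Col4a1 over Col4a2 was 1.18 and 1.23 in alveolar fibroblasts, 0.62 and 0.98 in pericytes and 0.11 and 0.41 in AT1 cells, and the alveolar fibroblast intervals (0.85 to 1.52 and 1.07 to 1.38) lay above those of AT1 cells (-0.19 to 0.41 and 0.21 to 0.60). Gene length stays in such ratios, so they were compared across cell types only.

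Immune cells held few collagen UMIs. Col1a2 stood at 194 and 79.5 CPM in ILC2 and, in macrophages, at 96.6 and 66.3, below the 530 and 457 CPM of the low barcodes. After thinning 8.21% and 3.52% of ILC2 nuclei held a Col1a2 UMI. The part of free RNA in these immune levels was not tested. In PBS mast cells or basophils the 2659 CPM rested on 62 UMIs of 36 nuclei. Of these UMIs 17 were Col1a2 and 19 Col1a1, so the levels of both genes there were not below those of the low barcodes.

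Chromatin at the collagen starts was counted in the same nuclei. Values are transposition counts in peaks within 1 kb of a start, given as CPM of the counts a gate had in peaks common to the libraries. Across the 9 gates the rank correlation between the RNA level and the promoter count was above 0 for 23 of 23 genes in both libraries, with a median of 0.70 and 0.73. The points share depth and library, and the highest gate was the same for RNA and promoter for 4 of 23 genes in the PBS and 10 of 23 in the OVA library. Col4a1 and Col4a2 were counted on 1 common peak, as were Col4a3 and Col4a4. In the OVA library Col4a5 and Col4a6 were also counted on the same 2 peaks. The promoter values within such a pair are thus not separate. The same values were not computed over all genes, so these counts are no result about collagens as a set.

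Col3a1 showed 16.4 and 19.5 CPM of chromatin counts in alveolar fibroblasts and 0 in ILC2, macrophages and mast cells or basophils. Col1a2, whose upstream stretch is printed above, showed 25.1 and 29.3 in alveolar fibroblasts, 43.2 and 36.1 in myofibroblasts or smooth muscle and 1.09 and 2.03 in ILC2. The peak shared by Col4a3 and Col4a4, whose deposited starts lie 127 bases apart, had 7.37 and 24.8 CPM in AT1 cells (7 and 22 counts), 19.5 and 15.5 in AT2 cells and 4.37 and 1.79 in alveolar fibroblasts. The AT1 over AT2 log2 difference of that peak was -1.40 (-2.77 to -0.29) in the PBS and 0.68 (-0.14 to 1.46) in the OVA library, so the RNA difference between AT1 and AT2 cells had no counterpart of the same direction in both libraries. Col4a1 and Col4a2, whose starts lie 21 bases apart under 1 peak, had 20.2 and 29.0 CPM in pericytes and 22.4 and 28.2 in alveolar fibroblasts, with log2 differences of -0.15 and 0.04.

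At Col6a1, AT2 cells showed 13.1 and 18.9 CPM (51 and 50 counts) against 2.10 and 6.78 in AT1 cells, a log2 difference of 2.64 (0.71 to 5.72) and 1.48 (0.26 to 2.99). At Col6a3 AT2 cells showed 1.54 and 0 CPM from 6 and 0 counts, against 22 and 34 counts in alveolar fibroblasts. Chromatin at the chains of type VI thus differed between AT1 and AT2 cells in the direction of the RNA for Col6a1, and for Col6a2 in the OVA library only (log2 -0.24 and 1.36). Col18a1 had 105 and 108 CPM in alveolar fibroblasts and 112 and 107 in AT2 cells.

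The comparison of the libraries asks how collagen RNA of fetal lung cells differed after maternal OVA asthma. The OVA over PBS log2 ratio was 0.10 (0.05 to 0.14) in alveolar fibroblasts, 0.07 (0.02 to 0.13) in stroma without subtype and 0.26 (0.16 to 0.36) in AT1 cells, beside medians over all genes of 0.06, 0.04 and 0.08. It was -0.14 (-0.26 to -0.02) in myofibroblasts or smooth muscle, -0.20 (-0.32 to -0.08) in pericytes and -0.08 (-0.21 to 0.04) in AT2 cells. ILC2 stood at -0.96 (-1.29 to -0.63) and macrophages at -0.62 (-1.07 to -0.16), gates whose Col1a2 level was under that of the low barcodes. The AT1 value stayed between 0.14 and 0.39 in all 8 alternatives, the pericyte value below 0 (-0.31 to -0.01), and the alveolar fibroblast value moved between -0.22 and 0.26.

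For single genes the fold was 2 either way with an interval leaving out equality, among genes with 50 or more UMIs in the gate. No collagen gene passed in alveolar fibroblasts (0 of 19 higher, against 1.74% of the 5281 genes tested, and 0 lower, against 0.871%), in myofibroblasts or smooth muscle (0 of 11, against 4.14% higher and 0.945% lower of 1376 genes), in pericytes (0 of 10, against 4.68% and 1.51% of 1260) or in AT1 cells (0 of 7, against 1.66% and 0.893% of 3135). In AT2 cells 1 of 14 was higher, against 2.55% of 3806 genes, and 2 were lower, against 0.736%. In stroma without subtype 1 of 20 was higher, against 1.89% of 4455 genes, and 0 were lower, against 1.32%. In ILC2 the 1 gene tested was lower, against 1.14% of 2368 genes, and 0 were higher, against 6.04%. In macrophages no collagen gene had enough UMIs.

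**Figure D5:**
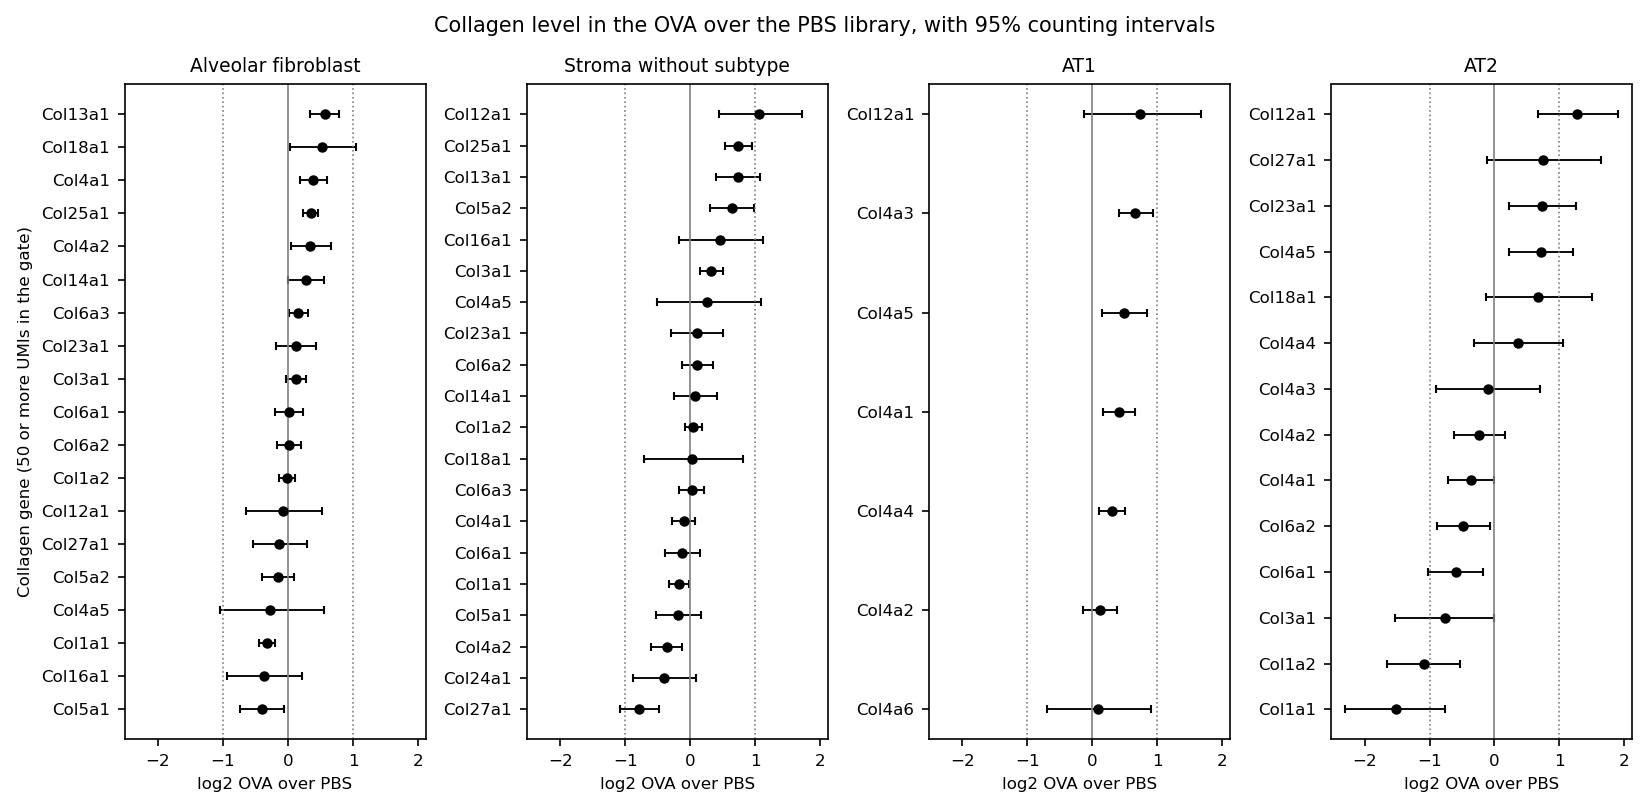
log2 ratio of the OVA over the PBS level (horizontal axis) of each collagen gene with 50 or more UMIs (vertical axis) in 4 gates, 1 library per group, with 95% counting intervals, a grey line at equality and dotted lines at a 2-fold difference. In AT1 cells all 7 points lie above 0, between 0.08 and 0.73, and in AT2 cells Col12a1 (1.27) and Col1a1 (-1.51) lie past the dotted lines.

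The gene higher in AT2 cells was Col12a1, a FACIT collagen of dense fibrils, with 31 PBS and 92 OVA UMIs (68.0 and 164 CPM), a log2 ratio of 1.27 (0.67 to 1.91). It was also the gene higher in stroma without subtype, with 27 and 117 UMIs (65.8 and 137 CPM) and a log2 ratio of 1.05 (0.44 to 1.72), of which 29 OVA UMIs came from 1 nucleus; without the nucleus with the most UMIs of each library it was 0.82 (0.16 to 1.54) there and 1.35 (0.69 to 2.04) in AT2 cells. Of the UMIs in stroma without subtype, 9 PBS and 72 OVA UMIs lay in the adventitial fibroblast-like cluster (50 and 58 nuclei), where the log2 ratio was 2.40 (1.39 to 3.58), against -0.39 (-1.71 to 1.19) and -1.83 (-7.35 to 1.21) in the alveolar fibroblast-like clusters and 0.92 (-0.80 to 3.01) in the myofibroblast-like one. In alveolar fibroblasts Col12a1 stood at 84.1 and 79.7 CPM. In AT1 cells it stood at 53.7 and 88.8 CPM, with 24 of its 48 OVA UMIs in 1 nucleus. With at most 20% mitochondrial UMIs or after thinning, no collagen gene passed as higher in either gate.

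In AT2 cells Col23a1 (log2 0.73, 0.22 to 1.26) and Col4a5 (0.71, 0.23 to 1.21) were higher below the fold, and Col6a1 (-0.60, -1.02 to -0.18), Col6a2 (-0.48, -0.89 to -0.07) and Col4a1 (-0.36, -0.71 to -0.01) were lower. The genes lower in AT2 cells past the fold were Col1a2 (167 and 78.3 CPM, log2 -1.09) and Col1a1 (112 and 39.2 CPM, log2 -1.51), and the gene lower in ILC2 was Col1a2 (log2 -1.28). All 3 values were below the levels of these genes in the low barcodes of the same library. Limited to at most 20% mitochondrial UMIs the AT2 values turned to 1.04 and 1.13. That limit left only 25 PBS and 79 OVA AT2 nuclei, where the main comparison asked for 50 in each library. The share of barcodes under 200 genes was larger in the PBS library, and its part in these differences was not tested.

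Below the fold, AT1 cells held more of the chains of their network in the OVA library: Col4a3 by 0.66 (0.40 to 0.93), Col4a5 by 0.49 (0.15 to 0.85), Col4a1 by 0.41 (0.17 to 0.66) and Col4a4 by 0.30 (0.10 to 0.50) on the log2 scale. For these 4 of 7 genes the interval lay above 0, as it did for 12.5% of all genes tested in AT1 cells. The other 3 were Col4a2 (0.12), Col4a6 (0.08) and Col12a1 (0.73). Over the alternatives Col4a3 ranged from 0.28 to 0.91 and Col4a4 from 0.10 to 0.43.

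In alveolar fibroblasts the interval lay above 0 for 6 of 19 genes, against 9.75% of all genes tested, and below 0 for 2, against 4.77%. Col13a1 differed by 0.56 (0.34 to 0.79), Col18a1 by 0.52 (0.03 to 1.05), Col4a1 by 0.39, Col25a1 by 0.35 (0.24 to 0.46), Col4a2 by 0.35 and Col6a3 by 0.16. Col1a1 differed by -0.32 (-0.45 to -0.20) and Col5a1 by -0.41 (-0.73 to -0.07). Col13a1 and Col25a1 thus lay above equality and Col1a1 below it, while the transmembrane gene Col23a1 was at 0.12 (-0.18 to 0.43). The nuclei of this gate divided into a cluster with 142 PBS and 552 OVA nuclei and one with 156 and 75, and within them the summed ratio was 0.15 and -0.22. Col25a1 was then at 0.15 (0.03 to 0.28) and 0.21 (-0.18 to 0.59) and Col1a1 at -0.13 (-0.29 to 0.03) and -0.33 (-0.74 to 0.06).

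In stroma without subtype Col25a1 (585 and 977 CPM, log2 0.74), Col13a1 (232 and 386, 0.74), Col5a2 (236 and 368, 0.64) and Col3a1 (890 and 1111, 0.32) were higher in the OVA library and Col27a1 (397 and 231, -0.78), Col4a2 (563 and 438, -0.36) and Col1a1 (1253 and 1111, -0.17) lower, with intervals leaving out 0. In pericytes Col4a2 (log2 -0.47, -0.76 to -0.18) and Col1a1 (-0.63, -1.14 to -0.11) were lower. Stroma without subtype was also spread unevenly over clusters: 1 alveolar fibroblast-like cluster took 36 of its PBS and 165 of its OVA nuclei, and another took 70 and 38. These clusters were compared after the values of the gate were seen. Within those clusters Col25a1 was at 0.35 (0.05 to 0.66) and -0.11 (-0.71 to 0.46). It was at -0.49 (-1.09 to 0.12) in the myofibroblast-like and -1.05 (-2.32 to 0.17) in the adventitial fibroblast-like cluster. Its point value was thus below 0 in 3 of 4 clusters, each with an interval that takes in 0. Col3a1 was at 0.57, -1.22 (-2.18 to -0.35), 0.16 and 0.75 in the same order, Col13a1 at 0.47, 0.38, 0.37 and -0.19, and Col5a2 at 0.95, -0.07, 0.45 and 0.44. Col27a1 was at -0.68, 0.43, -0.75 and 0.01, whereas the point values of Col4a2 (-0.50, -0.94, -0.20 and -0.40) and Col1a1 (-0.17, -0.41, -0.11 and -0.17) were below 0 in all 4. For Col4a2 and Col1a1 the intervals took in 0 in the alveolar fibroblast-like and myofibroblast-like clusters.

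A cluster of 190 PBS and 121 OVA nuclei was made without collagen genes and led by Ptn, Abca8a and Pcdh9. At least 3 adventitial fibroblast gate markers were raised in it, so it is called adventitial fibroblast-like. The mean log2 rise of the raised markers was 2.36, against 1.33 for those of alveolar fibroblasts. None of its leading genes was an adventitial fibroblast marker, and the adventitial gate held only 2 PBS and 2 OVA nuclei. The Col1a2 level of this cluster was 3979 and 4320 CPM, against 1651 and 1673 in the pair of alveolar fibroblast-like clusters. This was a log2 difference of 1.27 (1.14 to 1.40) and 1.37 (1.26 to 1.47). Col1a1 (log2 1.20 and 1.28), Col5a1 (1.56 and 1.86), Col16a1 (1.14 and 1.54) and Col27a1 (1.11 and 1.05) were higher too, where 3.28% of 7107 genes were higher, and Col25a1 was lower (249 and 265 CPM against 1805 and 2280, where 2.80% of genes were lower). The type I chains and Col25a1 thus differed in opposite directions between these fibroblast clusters.

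Genes that process and receive collagen were described from lists of 35 and 11 genes. In stroma over immune cells 14 of 31 processing genes tested were higher, against 15.9% of all genes tested, and 1 was lower, against 13.7%. The list median was 1.55 and 2.26 on the log2 scale, beside 0.02 and 0.02 over all genes. Among the 14 were Serpinh1, the collagen chaperone (308 and 339 CPM against 47.1 and 20.2), Lox, which crosslinks fibrils (596 and 603 against 61.8 and 34.0), Adamts2, which cleaves the N-propeptide (249 and 285 against 17.7 and 10.6), and Sparc, a collagen-binding matrix protein (812 and 797 against 61.8 and 28.6). Of the receptors 5 of 6 tested were higher, against the same 15.9%, among them Ddr2, a collagen receptor kinase (192 and 169 against 5.88 and 6.36), and Itga1, the integrin chain that binds type IV collagen (528 and 536 against 17.7 and 18.0).

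In AT1 over AT2 cells 2 of 14 processing genes were higher, against 8.19% of all genes, and 1 was lower, against 7.62%, and these few genes are no result about the list. The higher genes were Serpinh1 (186 and 183 CPM against 63.6 and 83.7) and Sparc (1177 and 1122 against 278 and 189), and the lower one was Bmp1, which cleaves the C-propeptide of fibrillar collagens (53.7 and 46.3 against 638 and 472). In pericytes over alveolar fibroblasts 2 of 25 processing genes were higher, against 6.16% of all genes, and 3 were lower, against 5.49%. Lox was lower (105 and 103 CPM against 754 and 757), as were Loxl1 and Adamts2, while Loxl2, a relative of Lox that acts on type IV collagen, was higher (116 and 122 against 22.3 and 10.4), as was Pcolce. Of the receptors 2 of 6 tested were higher in pericytes, against the same 6.16%, and 0 were lower, against 5.49%. They were Ddr2 and Itga1, the latter at 3068 and 3031 CPM against 275 and 319. Pericytes thus had more Col4a1, Col4a2, Itga1 and Loxl2, but also more Pcolce and Ddr2, and less Lox, Loxl1 and Adamts2, in both libraries. So few genes are no result about either list.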

How the data were processed

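Nuclei of 1 PBS and 1 OVA library of fetal lung were profiled for RNA and chromatin together. The authors deposited raw UMI counts per barcode, made with Cell Ranger ARC 2.0.1 on mm10 per the submitters' processing notes; whether intronic reads were counted is not given in the sources used here. Barcodes were retained from 200 detected genes upward and up to a mitochondrial share of 60%, and simulated doublets (2 per nucleus) set a removal of 0.8% per 1000 barcodes. A nucleus entered a gate with at least 2 of its markers and a lead of at least 2, and stroma without subtype needed 3 stromal markers. Clusters used 3000 variable genes without collagens, 30 principal components, 15 neighbours and Leiden resolution 1. UMIs were summed per gate and library, with exact Poisson, conditional binomial and Clopper-Pearson 95% intervals. Nuclei are not replicates, so no p-value was computed. Comparisons took genes with at least 50 UMIs and a fold of 2, with 0 taken as 3 counts, and shares were thinned to 500 UMIs. Depth was 649 and 1212.5 UMIs per nucleus at the median.

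Promoter counts used deposited peaks within 1 kb of the deposited gene start that overlapped between libraries (102479 of 134977 PBS and 102352 of 120379 OVA peaks). Gene spans came from GENCODE M21. Collagen genes were described when they had at least 100 UMIs in the reported gates or passed a fold rule; other genes were named only as markers or as list genes past the fold. The members and lists were chosen with earlier results of these data known. Alternatives changed the mitochondrial limit, the UMI minimum, the depth denominator, the gates, doublet removal, centring and thinning. The steps were tested on simulated data and ran in Python 3.11.15 with numpy 2.4.6, scipy 1.17.1, pandas 2.3.3, scanpy 1.11.5, leidenalg 0.10.2 and matplotlib 3.10.9.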

Additional observations from a re-analysis of the deposited data

How the results depend on the processing

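No paired analysis was possible because neither condition has more than 1 library. Of 80 counts of collagen genes past the fold between cell types, 69 stayed within 1.5 times the reported count, as did 120 of 138 counts for OVA over PBS. With at most 20% mitochondrial UMIs, genes higher in stroma over immune cells went from 23 to 9, higher in epithelium over immune cells from 11 to 3 and lower from 0 to 1, lower in AT1 over AT2 cells from 4 to 1, and alveolar fibroblasts over myofibroblasts from 7 to 4 higher and 2 to 1 lower; in AT2 cells OVA calls went to 0 higher and 0 lower, in stroma without subtype to 0 higher, the sums to 0.26 (alveolar fibroblasts), 0.39 (AT1), 0.24 (AT2) and 0.0020 (stroma without subtype), and in AT2 cells Col1a2 turned to 1.04, Col1a1 to 1.13 and Col6a1 to 0.49. Macrophages and ILC2 then had too few nuclei for a value. The PBS library kept 25 AT2, 45 AT1, 21 myofibroblast and 13 pericyte nuclei, under the 50 per library of the main comparison.

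With all gene UMIs, mitochondrial ones included, as the denominator, the sums were 0.23 (alveolar fibroblasts), 0.0044 (myofibroblasts, reversed), -0.0100 (pericytes), 0.39 (AT1), 0.15 (AT2) and 0.23 (stroma without subtype), with 1 gene lower in AT2 cells. Centred on the median gene, alveolar fibroblasts were at 0.034 and myofibroblasts at -0.28. A minimum of 100 UMIs left 1 gene lower in alveolar fibroblasts over myofibroblasts, 1 lower in AT2 cells and 0 in ILC2; a minimum of 30 gave 1 lower in AT1 cells and 2 in ILC2. Clusters in place of gates gave 6 genes lower in alveolar fibroblasts over myofibroblasts, 0 lower in AT2 cells and an ILC2 sum of -0.51, and no value for stroma without subtype. With called doublets kept, the sums were -0.25 (AT2) and -0.57 (ILC2), with 0 genes lower in ILC2. The stricter gate gave 1 gene lower in alveolar fibroblasts over myofibroblasts, 1 lower with OVA in alveolar fibroblasts, 0 lower in AT2 cells and ILC2, and sums of -0.27 (myofibroblasts), 0.072 (AT2) and -0.045 (ILC2). Thinning to 500 UMIs gave 2 genes lower in AT1 over AT2 cells, 1 lower in alveolar fibroblasts over myofibroblasts, 0 higher and 0 lower with OVA in AT2 cells, 0 lower in ILC2, 0 higher and 1 lower in stroma without subtype, sums of -0.070 (alveolar fibroblasts), 0.14 (AT1) and -0.075 (stroma without subtype), and Col6a3 in alveolar fibroblasts at -0.15. Without the collagen with the most UMIs the alveolar fibroblast sum was 0.047.

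Chosen after seeing the data, within-cluster sums were 0.15 and -0.22 in alveolar fibroblasts, 0.15, -0.41, -0.038 and 0.15 in stroma without subtype and -1.10 in 1 macrophage cluster; leaving out the nucleus with the most UMIs of a gene was also added then. The causes were not tested. With 1 library per group, counting intervals do not cover the spread between litters, and the PBS library had fewer UMIs per nucleus and more mitochondrial UMIs.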

Other observations

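Some clusters made without collagen genes held airway and endothelial cell types whose gates had too few nuclei to be reported (10 to 25 nuclei per library). A club-like cluster (34 PBS and 19 OVA nuclei, led by Scgb3a2 and Scgb1a1, secretory proteins of airway cells) had Col23a1 at 1103 and 1530 CPM against 114 and 183 in the AT2-like cluster, a log2 difference of 3.27 (2.71 to 3.84) and 3.07 (2.62 to 3.51). Col4a6 (331 and 178 CPM against 28.5 and 40.1) and Col4a5 (331 and 480 against 123 and 195) were higher there too, where 2.77% of 3904 genes were higher. The AT1 gate held Col4a5 at 340 and 478 CPM and Col4a6 at 75.1 and 79.6. Col6a1, Col6a2 and Col4a1 were lower in the club-like cluster, where 4.10% of genes were lower. The same 3 genes were lower in a ciliated-like cluster (30 and 21 nuclei) than in the AT2-like cluster, where 7.85% of 4791 genes were lower.

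A cluster of 22 PBS and 31 OVA nuclei carried endothelial markers and was led by Hbb-bs, a haemoglobin gene of red blood cells, together with Cyyr1 and Emcn. It held Col4a1 at 1176 and 1566 CPM. Against the pericyte-like cluster Col4a4 (315 and 166 CPM against 22.0 and 0), Col4a3 (165 and 117 CPM, 56 and 43 UMIs against 1 and 1) and Col4a5 (127 and 62.6 against 0 and 9.71) were higher, and Col1a1, Col1a2, Col3a1, Col5a1, Col6a3 and Col27a1 were lower, where 11.4% of 4231 genes were higher and 7.8% were lower. AT1 cells were the next-best marker class of this cluster, and the part of AT1 RNA in the Col4a3 and Col4a4 levels was not tested.

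Several sparse collagens stood in a myofibroblast-like cluster (461 and 388 nuclei). Col15a1 (70.8 and 74.1 CPM against 2.58 and 1.43 in the alveolar fibroblast-like clusters), Col6a4 (56.2 and 70.7 against 1.29 and 0), Col22a1 (39.1 and 56.9 against 2.58 and 0.475) and Col24a1 (186 and 188 against 20.6 and 25.7) were higher there, where 7.30% of 7808 genes were higher.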
